A study of Mus musculus with 80 samples.

Results

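The reporters described here are the 774 integrated transgenes that gave the most RNA per DNA copy when their activator was fully engaged, out of 10785 reporters with enough DNA counts and 10903 in the whole table. They were chosen from the libraries without doxycycline. For each pool and replicate, a reporter's level was the log2 of its share of the RNA counts over its share of the DNA counts. To each count 1 was added, and a reporter was taken when its level was at least 1.5 in both replicates. That is an RNA share at least 2.83 times its DNA share. Pools A, B, C and D held 155, 175, 219 and 225 of them, between 6.92% and 7.73% of the reporters of a pool. These RNA and DNA counts at dox 0 chose the reporters, so their height at dox 0, and any difference measured against dox 0, is a description and carries no test.

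All cells were of 1 line, EBRTcH3, mouse embryonic stem cells in which the ROSA26 promoter drives the tetracycline-controlled transactivator. The reporters were inserted with the piggyBac transposon from a tet-Off plasmid library, the sorted low-eGFP population was kept for 5 days, and small pools were expanded for 7 days before each was divided into 2 cultures for 7 more days. Every culture was then kept for 72 h at each of 4 doxycycline doses, none (dox 0), 0.01 ng/ml, 0.1 ng/ml and 100 ng/ml, so all groups shared the line, the transactivator and the reporters. The labels name a tet-Off construct, but their growth and treatment protocols also speak of a mouse PGK promoter, and the tet-Off name was followed here. The 2 cultures of a pool are technical replicates per the labels, and p-values from them measure only how far such cultures, and the libraries made from them, spread.

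In a tet-Off system the transactivator binds operator sequences in front of the reporter and recruits the transcription machinery, and doxycycline releases it from the DNA. What a reporter then makes at a high dose comes without that activator. An assay of this kind, known as TRIP, reads many insertions in parallel, because each insertion carries a random barcode that is transcribed with the reporter and can be counted in RNA and in genomic DNA. The same construct thus reports on many places in the genome, and chromatin around an insertion is known to alter how strongly a promoter fires.

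Barcodes were 16 bases long in 98.2% of the kept reporters, and they name each insertion. The following barcodes are printed, 5′ to 3′, because each marked insertions at different sites in different pools, so that the same letters can be set against the levels of more than 1 site.
barcode 1: tcgcagacttttatgg
barcode 2: accaattgataccctg
barcode 3: agataccgagccgcgc
barcode 4: tacactgtcggattga
barcode 5: cgtggtatcatagttg
Positions are those of the deposited table in the mm9 build, and genes at these positions were not analysed here.

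The same barcode could stand at very different levels at different sites. Barcode 1 stood at 2.92 at dox 0 in pool A (chromosome 12, position 88140340), at −4.04 in pool B (chromosome 14, position 58249493) and at 1.98 in pool D (chromosome 6, position 33540030). Barcode 2 stood at 2.44 in pool D (chromosome 5, position 108533927) and at −4.18 in pool B (chromosome 12, position 29205402). Barcode 3 stood at 3.65 in pool B (chromosome 19, position 46598680), at −2.71 in pool A (chromosome 1, position 62430107) and at −0.19 in pool C (chromosome 7, position 91173223). These 3 barcodes were chosen for the distance between their sites, so they show the range and not what is usual.

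Barcodes 4 and 5 each marked 2 selected reporters, which parted at higher doses. Barcode 4 had levels of 2.31 in pool A (chromosome 10, position 67602598) and 2.33 in pool B (chromosome 3, position 90247439) at dox 0, and of 5.90 and 0.17 at dox 100. Barcode 5 had levels of 2.23 in pool A (chromosome 2, position 179257198) and 1.93 in pool C (chromosome 6, position 94731072) at dox 0, and of 2.58 and −6.95 at dox 100. Both pairs were chosen after their values were seen, and their likeness at dox 0 follows from the threshold.

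Over the table, 385 barcodes occurred in more than 1 pool and none occurred more than once within a pool. Among the selected reporters, 52 carried 47 such barcodes, which marked 55 reporters at other sites. Those 55 had a median level of −0.50 at dox 0, from −4.18 to 3.20, beside a median of −0.79 over all kept reporters. Of the 55, 10 (18.2%) were themselves selected, against 7.18% of all kept reporters, and these 10 are 5 pairs counted from both ends. The G and C content of the barcodes averaged 40.5% over the selected reporters and 41.2% over the 10011 others.

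**Figure D1:**
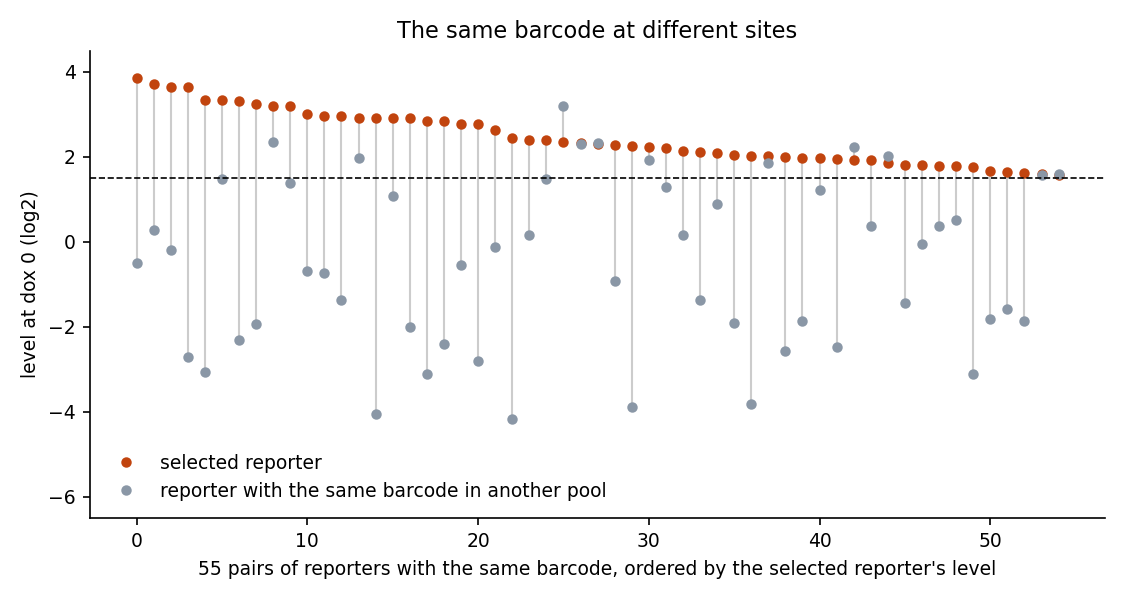
Levels at dox 0 (vertical axis, log2 of the RNA share over the DNA share) of selected reporters (orange) and of the 55 reporters at other sites with the same barcode (grey), 1 pair per position on the horizontal axis and the selection threshold of 1.5 as a dashed line. The grey points spread from −4.18 to 3.20, and 10 of them are selected reporters themselves.

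Because all reporters of a library are scaled to its total, a fall common to all reporters is not measured, and every level is relative to the other reporters at that dose. The median level of the selected reporters was 2.27 at dox 0, 2.32 at dox 0.01, 1.44 at dox 0.1 and −0.53 at dox 100. The other kept reporters had medians of −0.98, −1.38, −3.42 and −6.41 at the same doses. At dox 0.01 the selected reporters lay 3.70 ± 0.06 above the others on the log2 scale (SD over 4 pools), at dox 0.1 they lay 4.84 ± 0.24 above, and at dox 100 they lay 5.93 ± 0.38 above. That last gap depended on the added count, and was 8.66 with 0.1 added and 4.12 with 5 added, since reporters without RNA take their level from it.

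The selected reporters began close together and ended far apart. Their levels had an SD of 0.65 at dox 0, 0.97 at dox 0.01, 2.28 at dox 0.1 and 4.28 at dox 100, and ran from −10.19 to 8.37 at the last dose. The narrow spread at dox 0 is partly set by the threshold, which cuts the lower side off. The other kept reporters widened too, with SDs of 1.88, 2.19, 3.22 and 3.50 at these doses. At dox 100 the spread also takes in reporters without RNA, whose level follows from the added count. At dox 0.01, 548 of the 774 (70.8%) were again at 1.5 or above in both replicates, and they were 66.0% of the 830 reporters that were. At dox 0.1 these figures were 322 (41.6%) and 44.6% of 722, and at dox 100 they were 219 (28.3%) and 37.6% of 583. Most reporters above the mark at dox 100 were therefore not among those selected at dox 0. The selected ones were still 37.6% of them, beside 7.18% of all kept reporters.

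**Figure D2:**
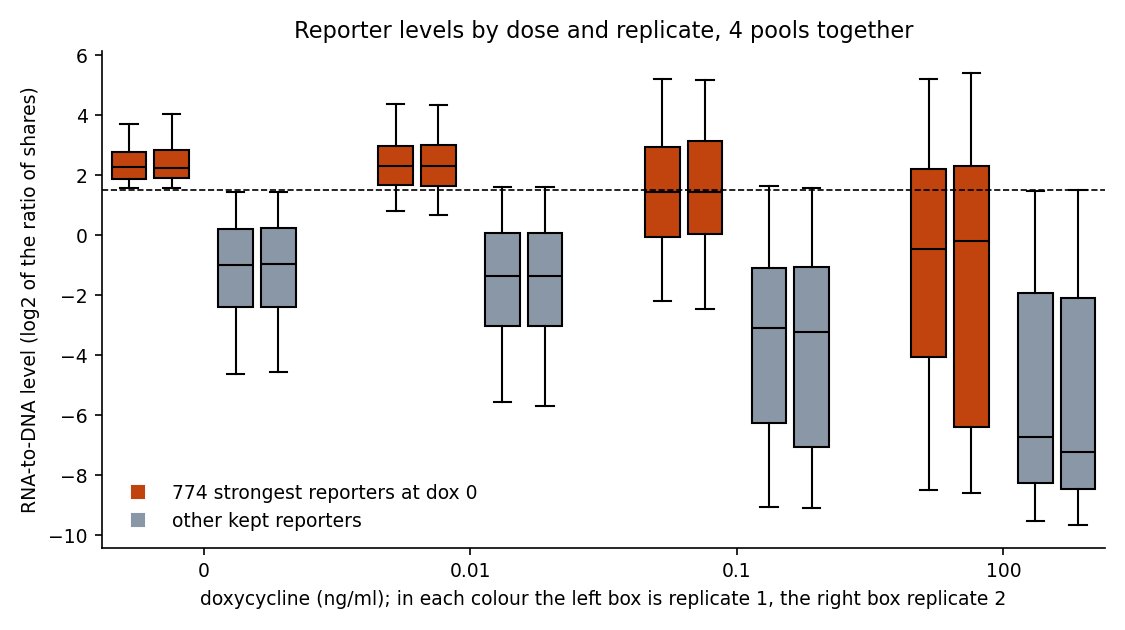
Levels (vertical axis, log2 of the RNA share over the DNA share) of the 774 selected reporters (orange) and the 10011 other kept reporters (grey) at each doxycycline dose (horizontal axis), with the left box for replicate 1 and the right box for replicate 2. Boxes span the quartiles with the median as a line, whiskers reach the 5th and 95th percentiles, and the dashed line is the threshold of 1.5. The orange boxes widen with dose, and their medians go from 2.28 and 2.24 at dox 0 to −0.47 and −0.18 at dox 100.

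With 7.18% of the kept reporters, the selected set took 30.2% ± 1.70 of the RNA counts at dox 0 (SD over 4 pools). Its share was 34.4% ± 1.29 at dox 0.01, 41.2% ± 4.56 at dox 0.1 and 35.7% ± 6.91 at dox 100. In the DNA libraries it took 5.84% ± 0.395 at dox 0 and between 6.28% and 6.39% at the other doses. The DNA counts of the selected reporters were thus lowest at the dose used to select them: the median log2 ratio of their DNA share at dox 0 to that at the other doses was −0.13, against 0.02 for the other reporters.

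At the dose used to choose the reporters, DNA counts were the noisier side of the ratio. Between the 2 replicates, log2 RNA counts over all kept reporters had a Pearson r of 0.974 to 0.985 at dox 0, whereas log2 DNA counts had one of 0.725 to 0.815 there. At dox 100 the r of RNA was 0.744 to 0.762, and that of DNA was 0.730 to 0.814. Of the 638 kept reporters with fewer than 50 DNA counts in a dox 0 library, 12.1% were selected, and of those with at least 300 counts in both, 5.85% were. The 77 selected reporters with fewer than 50 counts had a median level of 2.84 at dox 0 and of 2.11 at dox 0.01, and 53.2% of them were again above the threshold at dox 0.01. For the 279 with at least 300 counts these values were 2.12, 2.36 and 82.8%. When the DNA counts of all 8 DNA libraries of a pool were summed as the denominator for every dose, 670 of the 774 (86.6%) reached 1.5 in both replicates at dox 0. With the DNA of the other doses alone, 632 (81.7%) did. Both figures use the dox 0 RNA that chose the reporters.

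For the 3 highest reporters of each pool, the change in level from dox 0 to dox 100 ran from −9.90 to −0.05. Choosing the highest at dox 0 favoured such falls. With summed DNA, the pool A reporter on chromosome 8 (position 93429348) stood at 3.89 at dox 0 and 4.43 at dox 100. The rest of the 12 still stood lower at dox 100 than at dox 0. In pool A, the highest reporter (chromosome 8, position 93429348) had levels of 5.88 and 4.25 at dox 0 in replicates 1 and 2, of 4.18 and 3.52 at dox 0.01, of 3.16 and 4.09 at dox 0.1 and of 5.87 and 4.17 at dox 100. It held its level at the highest dose, with RNA counts of 1428 and 1794 at dox 0 and of 2006 and 1546 at dox 100. The next reporter of pool A (chromosome 16, position 20673718) had RNA counts of 2404 and 2851 at dox 0, 2841 and 3141 at dox 0.01, 1635 and 2760 at dox 0.1, and 56 and 0 at dox 100. Its levels at dox 100 were −0.35 and −5.31, and at dox 0, 0.01 and 0.1 they had been 4.77 and 5.21, 5.58 and 4.10, and 4.43 and 4.97.

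In pool B, the reporter at position 85189153 of chromosome 17 lost its RNA between dox 0.01 and dox 100. It had RNA counts of 716 and 1026 at dox 0, 806 and 773 at dox 0.01, 154 and 32 at dox 0.1, and 0 in both cultures at dox 100. Its DNA counts were 20 and 28 at dox 0 but 188 and 132 at dox 0.01, so that its level went from 4.88 at dox 0 to 2.27 at dox 0.01 with little change in RNA. With summed DNA these levels were 2.79 and 2.81. The fold that follows is a bound on its read counts and not a lower limit on the fall in RNA. Against dox 0.01 it was at least 116-fold lower at dox 100, taking 3 counts over both replicates as the floor, and edgeR called it lower with an adjusted p of 0.00232 (1.36e-06 to 0.0332 over the alternatives). The highest reporter of pool B (chromosome 7, position 4971289) had levels of 3.65 and 6.18 at dox 0, 3.24 and 3.22 at dox 0.01, 2.91 and 1.74 at dox 0.1, and 3.80 and 3.41 at dox 100.

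In pool C, the reporter at position 46574024 of chromosome 19 had some of the highest RNA counts of the set. They were 11982 and 14479 at dox 0, 17033 and 17746 at dox 0.01, 22673 and 15844 at dox 0.1, and 5381 and 6791 at dox 100. Its levels stayed between 3.67 and 5.39 in all 8 measurements. In pool D, the reporter at position 26034775 of chromosome 7 had the highest level of all 774 at dox 0, 4.83 and 5.86 in the 2 replicates, and stood at 4.12 and 3.49 at dox 100.

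Of these 12 reporters, 9 had RNA in both cultures at dox 100, 2 in 1 culture and 1 in neither. Relative to dox 0.01, edgeR called 4 of the 12 lower, 2 higher and 6 neither, and 2 of the lower and both of the higher calls were lost under at least 1 alternative. Their DNA counts at dox 0 ran from 11 to 394 with a median of 79, below the median of 260 over all selected reporters. With DNA summed over the doses, 9 of the 12 had a lower level at dox 0, by a median of 0.51 over all 12 and by 2.09 at most, and the heights that put them first therefore rest in part on few DNA counts.

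**Figure D3:**
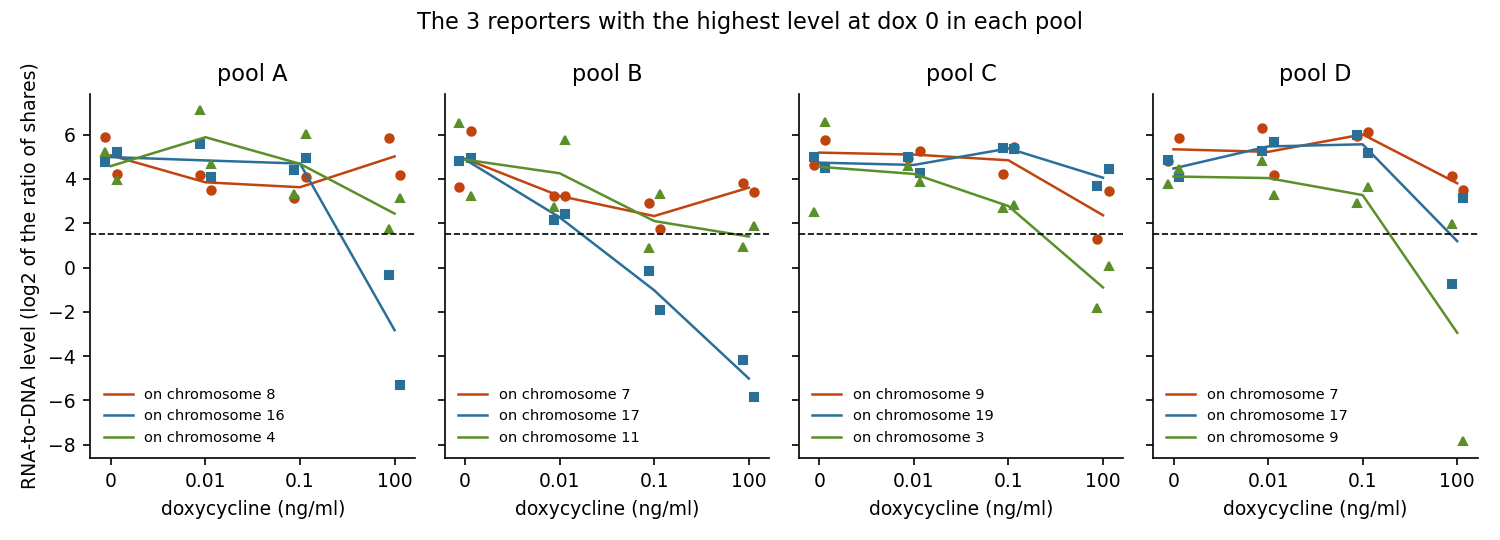
Levels (vertical axis, log2) of the 3 reporters with the highest mean level at dox 0 in each pool, by doxycycline dose (horizontal axis, ng/ml). Points are the 2 replicates, lines join their means and the dashed line marks 1.5. Lines start between 4.11 and 5.34 and end between −5.02 and 5.02.

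Just inside the threshold, a reporter of pool A (chromosome 8, position 91484235) had levels of 1.5 and 2.62 at dox 0 and of 2.02 and 1.70 at dox 100. A reporter of pool C just outside it (chromosome 8, position 122353713) had just under 1.5, and 2.57, at dox 0, and its RNA counts were 0 in both cultures at dox 100. A reporter of pool B also just outside (chromosome 16, position 38440592) had 1.88 and just under 1.5 at dox 0 and 1.97 and 2.34 at dox 100.

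How far each reporter fell from dox 0 was described on the same log2 scale. At dox 0.01 the median change was −0.04 ± 0.05 (SD over 4 pools), and 625 of 774 stayed within 1 of their starting level. With summed DNA that median was 0.09, so its sign depended on the DNA counts used. At dox 0.1 the median change was −0.95 ± 0.06, and at dox 100 it was −2.84 ± 0.17. The other reporters had medians of −0.36, −2.29 and −4.62 at these doses.

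At dox 100, the selected reporters split widely. Of the 774, 289 (37.3%) had lost 5 or more, 243 (31.4%) had lost between 1 and 5, 137 (17.7%) were within 1 of their starting level and 105 (13.6%) stood at least 1 higher relative to the other reporters. At dox 0.1 the corresponding numbers were 28, 357, 250 and 139. Among the other kept reporters, 45.3% had lost 5 or more at dox 100 and 7.81% stood at least 1 higher.

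The order at dox 0 and the order at dox 100 were only weakly related. Over the 774, Spearman's rho between the level at dox 0 and that at dox 100 was 0.17, and it was 0.54 between dox 0 and dox 0.01 and 0.78 between dox 0.1 and dox 100. These correlations are across reporters that share libraries, the range at dox 0 was cut by the choice, and they are given as a description. Split by level at dox 0 into 4 groups of 193 or 194, the lowest group had RNA in both cultures at dox 100 in 65.5% of reporters and the highest in 69.1%. Split by the level at dox 0.01, which the choice did not use, the groups had RNA in both cultures in 39.2%, 69.4%, 75.6% and 80.4% of reporters, from lowest to highest.

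The tests set dox 100 and dox 0.1 against dox 0.01, in fits that left out the dox 0 libraries. At dox 100, edgeR called 285 selected reporters (36.8%) lower and 140 (18.1%) higher, while 43.7% of all kept reporters were called lower and 8.69% higher. The share called lower was thus below that of the whole table and the share called higher was above it, differences that were given as counts and not tested. In single pools, 31.6% to 41.6% were lower and 14.6% to 20.9% higher. The 140 called higher had a median change of 2.70 on the log2 scale, and all of them had RNA in both cultures at dox 100. The 285 called lower had a median change of −8.13, a fitted value that includes 131 reporters without any RNA at that dose. The lower count was 188 without replicate 1 of dox 0.01 and 181 without replicate 2, and the higher count was 93 without replicate 1 of that dose.

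These directions are relative to the scaling. The median log2 change of all kept reporters was −3.71 with TMM, −4.26 with DESeq2's size factors and −4.60 with library totals, and that of the selected reporters was −1.62, −2.24 and −2.68. A scaling moves all reporters of a library alike, so the gap between these medians is nearly fixed, but the calls moved, with 285 lower and 140 higher under TMM, 344 and 98 under size factors, and 402 and 81 under totals. Under totals, 53.5% of all reporters were lower and 4.82% higher, beside 51.9% and 10.5% of the selected ones.

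At dox 0.1, most of the selected reporters were called neither way. edgeR called 26 (3.36%) lower, against 12% of all kept reporters, and 123 (15.9%) higher, against 5.27%. That balance turned with the scaling: it was 73 lower and 70 higher with size factors, and 94 lower and 60 higher with library totals. Over all kept reporters, 16.8% were lower and 2.87% higher with size factors, beside 9.43% and 9.04% of the selected ones, and 18.9% were lower and 2.30% higher with totals, beside 12.1% and 7.75%. The lower count was 4 with the replicate number as a block, and it was 0 when either dox 0.01 replicate was left out, with 34 and 26 at an unadjusted p under 0.05. The higher count was 18 and 24 without those replicates. All 123 called higher had RNA in both cultures at dox 0.1. Their median level was 4.30 at that dose and 4.31 at dox 100.

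Whether a reporter kept any RNA at dox 100 was the plainest split. All 774 had RNA in both cultures at dox 0.01, and 757 did at dox 0.1, with 13 in 1 culture and 4 in neither. At dox 100, 512 (66.1%) had RNA in both cultures, 130 (16.8%) in 1 and 132 (17.1%) in neither. Among the other kept reporters these shares at dox 100 were 27.9%, 21.3% and 50.8%. At dox 100 the RNA libraries held 729108 to 1355706 counts. A count of 0 says only that no read of the barcode was counted there, and not that RNA was absent. Fewer cells with the reporter on and less RNA per cell cannot be told apart in pooled cells.

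**Figure D4:**
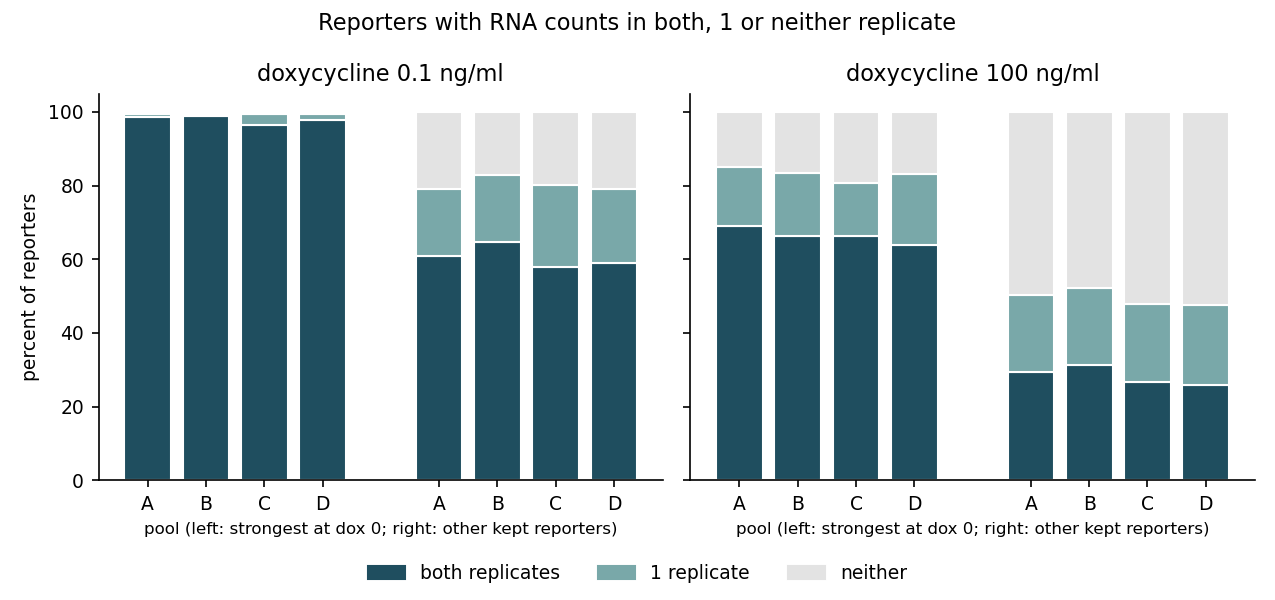
Share of reporters (vertical axis, percent) with RNA counts in both replicates, in 1 or in neither, for each pool at doxycycline 0.1 ng/ml (left panel) and 100 ng/ml (right panel), with the selected reporters in the left bars and the other kept reporters in the right bars of a panel. At 100 ng/ml the selected reporters had RNA in both replicates in 66.1% of cases over all pools, the others in 27.9%.

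The 512 reporters with RNA in both cultures at dox 100 and the 132 with none had medians of 2.32 and 2.22 at dox 0, where the threshold held both up. At dox 0.01, which the choice did not use, they stood at 2.49 and 1.82, and at dox 0.1 at 2.22 and −0.37. They differed in DNA as well: the median sum of DNA counts over both dox 100 cultures was 646 for the reporters with RNA in both, 496 for those with RNA in 1 and 364 for those with none. The share without RNA was 35.1% among selected reporters with fewer than 50 DNA counts in a dox 0 library and 8.96% among those with at least 300 in both. The part of DNA depth in the loss of RNA was not tested.

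For the 132 reporters without RNA at dox 100, a bound on the fall was computed from their read counts. Against dox 0 it had a median of at least 608-fold and ran from 85.2-fold to 3166-fold, and against dox 0.01 the median was at least 433-fold. These are bounds on read counts, with 3 counts over both replicates as the floor. As reads were amplified by PCR and carried no molecular identifiers, floors cover counting error only. In the 130 reporters with RNA in 1 culture at dox 100, a count of 0 stood beside a median of 72 counts in the other culture. The folds are therefore not lower limits on the fall in RNA.

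The largest of these read-count bounds against dox 0.01 belonged to 5 reporters with at least 177 DNA counts in every library. The folds given for single reporters below are such bounds. In pool D, the reporter on chromosome 16 at position 44530458 had RNA counts of 2072 and 1964 at dox 0, 2840 and 1974 at dox 0.01, 1183 and 830 at dox 0.1, and 0 and 0 at dox 100. Its DNA counts at dox 100 were 244 and 509, and it was at least 2392-fold lower there than at dox 0.01 (edgeR adjusted p of 0.000136, and 3.96e-15 to 0.0108 over the alternatives). Most of its fall thus lay between dox 0.1 and dox 100.

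In pool A, a reporter on chromosome 12 (position 107248118) had gone down earlier. It had RNA counts of 6127 and 6329 at dox 0, 3364 and 3270 at dox 0.01, 65 and 171 at dox 0.1, and 0 and 0 at dox 100. edgeR called it lower at dox 0.1, by a log2 change of −4.74 with an SE of 0.83 (adjusted p of 0.00782, and 1.28e-09 to 0.129 over the alternatives), and at dox 100 it was at least 2200-fold lower than at dox 0.01. A further reporter of pool A (chromosome 10, position 77774674) had at least 1022 DNA counts in each dox 0 library and RNA counts of 4163 and 4999 at dox 0, and it was at least 1941-fold lower at dox 100 than at dox 0.01.

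The reporters that stood highest at dox 100 had moved the other way. In pool B, the reporter on chromosome 4 at position 141628134 had RNA counts of 3780 and 3971 at dox 0, 7283 and 8592 at dox 0.01, 44075 and 40933 at dox 0.1, and 33291 and 41739 at dox 100. Its levels were 3.05 and 3.15, 3.76 and 3.27, 6.41 and 6.13, and 7.17 and 7.67 at the 4 doses. edgeR gave a log2 change of 4.93 with an SE of 0.34 at dox 100 against dox 0.01 (adjusted p of 3.21e-05, and 2.35e-24 to 0.00612 over the alternatives). These values are relative to libraries in which most other reporters fell.

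A reporter of pool C lay 154 bp away on the same strand, at position 141627980. It had RNA counts of 983 and 989 at dox 0, 1893 and 1680 at dox 0.01, 9482 and 5526 at dox 0.1, and 14026 and 10962 at dox 100. edgeR gave a change of 5.25 with an SE of 0.72 at dox 100 (adjusted p of 0.000456, and 5.30e-08 to 0.0174 over the alternatives). So these 2 insertions of different pools both rose relative to their libraries, which their choice as highest at dox 100 favoured. The barcode of the pool C reporter also marked a reporter of pool D on chromosome 13, with a level of −1.82 at dox 0 and −8.61 at dox 100.

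In pool D, the reporter with the highest level at dox 100 (chromosome 5, position 104151951) had levels of 2.52 and 1.82 at dox 0, 5.00 and 3.11 at dox 0.01, 6.63 and 5.81 at dox 0.1, and 8.90 and 7.84 at dox 100. Another pool D reporter at position 104127348 of that chromosome reached 5.94 and 10.05 at dox 100, the latter on 13 DNA counts. In pool A, a reporter on chromosome 17 (position 37120992) went from 2.74 and 3.71 at dox 0 to 6.57 and 7.97 at dox 100. All 5 of these reporters were called higher at dox 100 against dox 0.01, which the choice of the highest at dox 100 favoured. The call at position 104127348 (adjusted p of 0.0135 from edgeR) was lost under an alternative, with a range of 0.000112 to 0.115.

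A reading in a single culture was common, and not only at the lowest read counts. How near such readings lay to the limit of detection cannot be told from amplified reads. The 130 reporters with RNA in 1 culture at dox 100 had a median count of 72 there, 17 of them had at most 10 counts, and the largest count was 408. That reporter (pool A, chromosome 9, position 45309395) had RNA counts of 5612 and 6566 at dox 0, 5252 and 5509 at dox 0.01, 1107 and 1207 at dox 0.1, and 0 and 408 at dox 100, with 1114 and 1210 DNA counts there. A reporter of pool D (chromosome 17, position 47594015) had 0 and 367 at dox 100, and another (chromosome 11, position 5387987) had 342 and 0. The positive culture was replicate 1 in 82 cases and replicate 2 in 48.

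Insertions near a selected reporter were high too, in pools other than its own, which were read in libraries of their own. Of the 774, 209 (27.0%) had a kept reporter of another pool within 10 kb. The 246 reporters of other pools that lay that close had a median level of 0.95 at dox 0, beside −0.24 for the 1475 reporters whose other-pool neighbours within 10 kb were all unselected. The gap between these medians was 1.19 ± 0.10 (SD over 4 pools), with 1.14 in pools A, B and D and 1.34 in pool C. At dox 0.01 the medians were 1.12 and −0.25. Of the 246 neighbours, 64 (26.0%) were selected themselves, against 9.83% of the 1475.

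The gap was present at longer distances, on lower levels. Between 10 and 100 kb, neighbours of selected reporters had a median of 0.56 and the comparison reporters −0.60. Between 100 kb and 1 Mb, the medians were −0.13 and −1.12. The nearest kept reporter of any pool lay at a median distance of 25018 bp from a selected reporter and 50965 bp from another kept reporter, so selected reporters sat where insertions were denser.

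**Figure D5:**
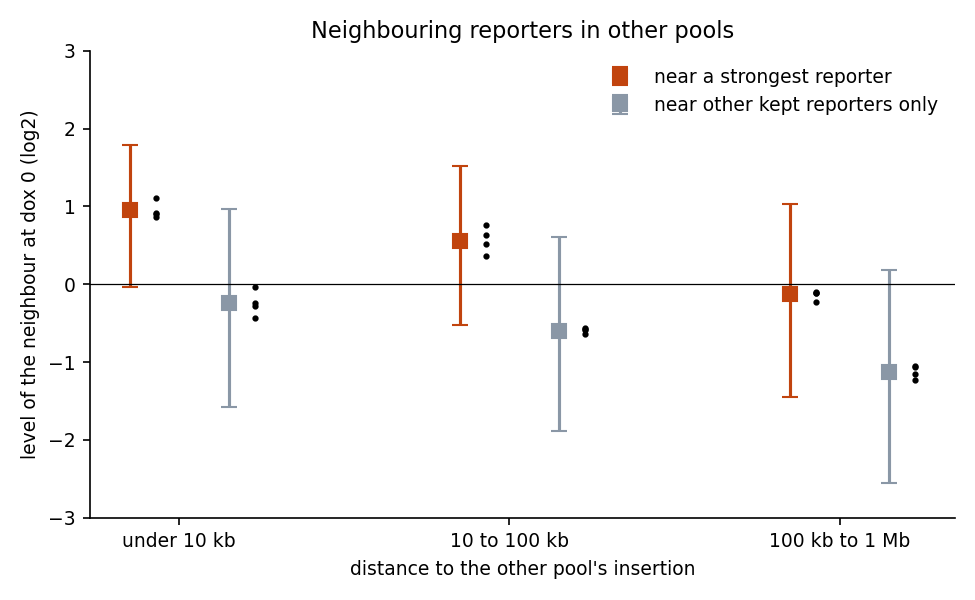
Level at dox 0 (vertical axis, log2) of reporters near a selected reporter of another pool (orange) and of reporters with unselected other-pool neighbours only (grey), by distance (horizontal axis). Squares are medians, bars span the quartiles and black dots are the medians of the 4 pools. The orange median falls from 0.95 under 10 kb to −0.13 beyond 100 kb, and the grey one from −0.24 to −1.12.

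At dox 100, neighbours of selected reporters that kept RNA differed from neighbours of those that lost it. The 186 other-pool neighbours within 10 kb of a reporter that kept RNA in both cultures had a median level of 0.95 at dox 100, and 82.8% of them had RNA in both cultures. The 28 neighbours of 20 reporters that lost all RNA had a median of −5.27. Of these 28, 28.6% had RNA in both cultures and 32.1% in neither, against 4.84% in neither among the 186. All unselected kept reporters had RNA in both in 27.9% and in neither in 50.8%. These sets of neighbours already differed at dox 0, with medians of 1.01 and 0.35. Of the 186, 51 were selected themselves, and of the 28, 5 were. There were 34 pairs of selected reporters from different pools within 10 kb. In 25 of them both kept RNA in both cultures, in none did both lose it, in 2 one kept and the other lost it, and the other 7 included a reporter read in 1 culture. Over all selected reporters, 66.1% had RNA in both cultures at dox 100 and 17.1% in neither. Of 13 such pairs within a pool, both kept RNA in 9, both lost it in 1, and 3 included a reporter read in 1 culture.

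The closest pairs of selected reporters from different pools were mostly alike at dox 100. On chromosome 7, reporters of pools B and C 299 bp apart had RNA counts of 28 and 0, and of 0 and 0, at that dose. Of that pair, edgeR called only the pool C reporter lower. On chromosome 12, reporters of pools A and D were mapped 1 bp apart on opposite strands (positions 103951917 and 103951916). At dox 100 they had RNA counts of 1762 and 1281 and of 910 and 192, and edgeR called neither changed. On chromosome 7, reporters of pools C and D 157 bp apart (positions 87332103 and 87332260) had levels of 2.33 and 2.82 at dox 0 and of 4.65 and 5.20 at dox 100, and both were called higher at dox 100, with adjusted p of 0.00174 and 0.00214 from edgeR (0.0003 to 0.0414 over the alternatives of both).

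A pair on chromosome 1 parted. The reporter of pool B at position 155341842 had levels of 3.0, 2.62, 1.87 and 0.05 at the 4 doses, with RNA counts of 143 and 358 at dox 100. The reporter of pool C at position 155341972, 130 bp away on the other strand, had levels of 2.87, 2.67 and 2.84 at the lower doses and RNA counts of 0 and 0 at dox 100. It had 70 and 175 DNA counts there, and by the bound on read counts was at least 451-fold lower than at dox 0.01. The mean levels of the 2 reporters had been within 1 log2 unit of each other up to dox 0.1.

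A few selected reporters had a low neighbour. On chromosome 9, a reporter of pool D at position 41917827 stood at 3.45 and 4.76 at dox 0, while a reporter of pool B 8986 bp away stood at −3.04 and −2.55. On chromosome 2, a reporter of pool D at position 73755102 stood at 2.08 and 2.68 at dox 0, and a reporter of pool B 6653 bp away at −3.28 and −3.54. At dox 100 this second pair stood at −0.17 and −0.40, after a fall of the selected reporter from a mean level of 2.38 and a rise of its neighbour from −3.41. The change of the selected reporter from dox 0.01 to dox 100 was not called, and that of the neighbour was called higher (edgeR log2 change of 4.54 with an SE of 0.87 against dox 0.01, adjusted p of 0.00281, and 4.00e-05 to 0.0466 over the alternatives).

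Selected reporters occurred on every chromosome but Y, which held 6 kept reporters. Their share among kept reporters was highest on chromosomes 11 (72 of 649, 11.1%), 7 (59 of 532, 11.1%) and 17 (46 of 450, 10.2%). It was lowest on chromosome 13 (17 of 541, 3.14%), where the pools ranged from 0.901% to 4.67%. On chromosome 11 the pools ranged from 10.5% to 12.1%, whereas on chromosome 7 they ranged from 7.21% to 17.9%. The insertions were on the plus strand in 51.0% of the selected and 49.2% of the other reporters.

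Of 2309 windows of 1 Mb with a kept reporter, 483 held a selected one, and 71 held 3 or more, with 256 selected reporters between them. The fullest was chromosome 17 from 47000001 to 48000000, where 7 of 10 kept reporters from 4 pools were selected and 6 of the 7 kept RNA in both cultures at dox 100. On chromosome 11 from 60000001 to 61000000, 6 of 9 were selected, with levels of 1.60 to 3.92 at dox 0, but only 1 kept RNA in both cultures and 2 lost it in both. On chromosome 5 from 104000001 to 105000000, 5 of 12 were selected, and all 5 kept RNA in both cultures, with levels of 2.43 to 8.37 at dox 100. Other full windows lay between these. On chromosomes 9, 12 and 3, 5, 3 and 5 of 6 selected reporters kept RNA in both cultures, and on chromosomes 14 and 15, 3 and 4 of 5 did. Windows with similar numbers of strong reporters at dox 0 thus could differ in what those reporters kept at dox 100, on few reporters each.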

How the data were processed

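Counts of barcode reads in RNA and in genomic DNA are, per the file headers, separate columns of 1 deposited table, without normalization. The submitters' processing notes name Bowtie2 2.0 and mm9, while for barcode calling the sources used here name no method. In all, the study has 80 samples: 64 RNA and DNA libraries (4 pools, 4 doses, 2 replicates) and 16 mapping libraries, which enter through positions. Of the columns of sample values, 0 were left unused.

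A reporter was left out when any of its pool's DNA libraries gave it under 10 counts (118 of 10903). Totals per library ran from 729108 to 1840870 counts in RNA and from 923846 to 1571280 in DNA. Levels were computed in Python 3.11.15 with numpy 2.4.6 and pandas 2.3.3, as means of the 2 replicates unless given singly. Tests used edgeR 4.0.16 in R 4.3.3: per pool, a quasi-likelihood fit of all kept reporters over 12 libraries (dox 0 left out) with an assay by dose interaction, scaled by TMM among libraries of an assay, with Benjamini-Hochberg adjusted p-values per pool called at 0.05. An SE is the absolute log2 change over the square root of F, which is unreliable with almost no RNA. The fit was tested on simulated counts. Alternatives used DESeq2 1.42.0, other scalings, a DNA offset, DNA minimums, pseudocounts of 0.1 and 5, left-out replicates and a replicate block. Per the labels, each culture was split over the doses, so replicate numbers pair the libraries of a pool. The deviations of same-numbered libraries correlated between −0.0532 and 0.0463.

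The members, lists and named reporters were chosen with earlier results of these data known. Named reporters were, by rule, the 3 highest at dox 0 in each pool, the 5 highest at dox 100, the 5 with the largest bound on the fall, the 3 with the largest count in 1 culture, the 5 closest pairs from different pools, selected reporters with the lowest neighbours, those nearest the threshold, and the fullest 1 Mb windows. Not all of these are described. The barcodes printed, and their sites, were chosen after their values were seen.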

Additional observations from a re-analysis of the deposited data

Results flagged for a closer look

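In 2 of 24 quantities compared over the 4 pools, 1 pool stood far from the others by Dixon's criterion, which chance meets in about 1 of 20 groups. The selected reporters took 5.67% of the DNA counts at dox 0.1 in pool A, and 6.57%, 6.44% and 6.43% in pools B, C and D. The gap between neighbours of selected reporters and of other reporters within 10 kb was 1.34 in pool C, and 1.14 in each of the other pools.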

How the results depend on the processing

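At dox 100 the number called lower (285) was 169 with a DNA minimum of 100, and 181 to 356 when single replicates were left out. The number called higher (140) was 81 with library totals and 93 to 142 without single replicates. At dox 0.1 the number called lower (26) was 73 with DESeq2's size factors, 94 with library totals, 132 with DESeq2's Wald test, 0 with DNA as an offset in edgeR (64 at an unadjusted p under 0.05), 16 with a DNA minimum of 100, 4 with the replicate block, 48 with dox 0 libraries in the fit, and 0 to 81 without single replicates. The number called higher (123) was 70, 60 and 31 with size factors, totals and the offset, and 18 to 152 without single replicates. The replicate block moved no other count by over 1.5 times. The cause of these shifts was not tested. A threshold of 1 or 2 gave 1359 or 386 reporters.

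The gap to the other reporters at dox 0.01 was 3.64 with a pseudocount of 5 and 3.64 to 3.67 in single replicates. At dox 0.1 it was 4.51 and 4.53 to 4.71, and at dox 100 it was 8.66 and 4.12 with pseudocounts of 0.1 and 5 and 6.31 to 7.05 in single replicates. With summed DNA, chosen after seeing the data, the change from dox 0 was 0.092 at dox 0.01, −0.85 at dox 0.1 and −2.60 at dox 100, and single replicates gave −2.72 to −2.50 there. The share without RNA was 0.904% to 1.81% at dox 0.1 and 23.3% to 27.6% at dox 100 in single replicates. The neighbour gap was 1.2 within 5 kb and 1.27 within 50 kb. With same-pool neighbours it was 1.10 ± 0.958 (SD over 4 pools), and it was reversed in pool B (−0.27, 15 neighbours). Depth limits what a count of 0 shows at dox 100, and few DNA counts limit single levels.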
